A study of Mus musculus with 12 samples.

Results

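The p200 genes are a family of interferon-inducible genes that lie side by side on mouse chromosome 1. Of the 55453 gene symbols counted in RNA from mouse hearts, 9 are described here, namely Ifi203, Ifi204, Ifi205, Ifi207, Ifi208, Ifi209, Ifi211, Ifi213 and Mndal. They were taken by symbol, and they were chosen with their levels in these libraries known, so their differences between groups are given as descriptions. Where members are counted among the genes called by a test, the count stands beside that of all genes and is not used as evidence. The study asked which transcripts in the heart depend on the anthracycline doxorubicin (DOX) and on PDE10A, a phosphodiesterase that breaks down cAMP and cGMP. There were 4 groups of 3 C57BL/6J mice, namely PDE10A knockout (KO) mice given DOX (18, 19 and 20 by the titles), KO mice given vehicle (veh_3393, veh_3394 and veh_3395), wild-type (WT) mice given DOX (21, 22 and 24) and WT mice given vehicle (1, 2 and 3). Per the labels' protocols, DOX was a single intraperitoneal dose of 15 mg/kg followed for 7 days, and mice of either sex were used. The protocols also describe the PDE10A inhibitor TP-10, which none of these 12 libraries carries in its label. How the knockout allele was made, the cells in which it acts and the ages of the mice are not stated in the labels.

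Most p200 proteins carry a pyrin domain, through which they join other signalling proteins, and a HIN domain that binds double-stranded DNA. Type I interferon raises their transcripts through a transcription factor complex that includes STAT2 and IRF9, and several of them are known as sensors of DNA in the cytosol or nucleus that act through STING or, in the case of Aim2, through the inflammasome. They are best studied in macrophages and other blood cells. In the mouse the family has expanded by duplication, and close copies may share sequencing reads.

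The 9 genes lie within 681 kb of chromosome 1 that runs with Aim2 at one end from 173350879 to 174031810 (GRCm38, GENCODE M21, matched by symbol). From low to high coordinate the order is Ifi213, Ifi209, Ifi208, Ifi207, Ifi204, Mndal, Ifi211, Ifi203 and Ifi205. Ifi208 (173673675 to 173698395) and Ifi209 (173630917 to 173647928) are on the plus strand and the other 7 are on the minus strand. Ifi205 spans 174011998 to 174031810, Ifi207 spans 173723427 to 173741747, and Ifi203 spans 173920407 to 173942672. The annotated Mndal locus (173849126 to 173942491) encloses Ifi211 (173896345 to 173913046) and overlaps Ifi203, with which it shares 37 bases of exon, 0.6% of the exon bases of Ifi203.

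The promoters show how closely some of these genes are related, and 7 of them are printed here because the pairs they form are the pairs compared in the results. Each line holds the 180 bases before the RefSeq gene start, 5′ to 3′ on the gene's strand (GRCm38.p6), with a 9-base repeat of the kind that interferon regulatory factors bind, GAAANNGAA, in capitals.
Ifi205: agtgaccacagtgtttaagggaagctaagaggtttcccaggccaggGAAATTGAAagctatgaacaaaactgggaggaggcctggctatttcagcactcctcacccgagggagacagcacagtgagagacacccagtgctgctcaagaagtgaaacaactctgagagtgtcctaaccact
Ifi207: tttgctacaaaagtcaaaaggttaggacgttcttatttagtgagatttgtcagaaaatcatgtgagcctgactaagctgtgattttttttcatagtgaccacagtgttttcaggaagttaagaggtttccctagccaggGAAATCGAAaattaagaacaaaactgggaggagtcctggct
Ifi211: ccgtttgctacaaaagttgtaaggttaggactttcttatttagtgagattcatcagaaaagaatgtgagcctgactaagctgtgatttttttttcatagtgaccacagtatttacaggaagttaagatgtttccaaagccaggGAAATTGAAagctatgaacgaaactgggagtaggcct
Ifi203: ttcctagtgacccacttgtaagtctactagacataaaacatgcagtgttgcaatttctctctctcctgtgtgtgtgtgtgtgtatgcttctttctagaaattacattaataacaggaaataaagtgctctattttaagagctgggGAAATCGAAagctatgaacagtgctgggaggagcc
Mndal: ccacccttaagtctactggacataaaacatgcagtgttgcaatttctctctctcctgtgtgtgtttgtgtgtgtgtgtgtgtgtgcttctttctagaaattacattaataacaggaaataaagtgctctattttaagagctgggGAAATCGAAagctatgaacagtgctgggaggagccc
Ifi208: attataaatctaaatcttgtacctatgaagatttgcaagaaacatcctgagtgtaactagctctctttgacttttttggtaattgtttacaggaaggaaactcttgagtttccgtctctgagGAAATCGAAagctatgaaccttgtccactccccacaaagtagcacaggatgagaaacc
Ifi213: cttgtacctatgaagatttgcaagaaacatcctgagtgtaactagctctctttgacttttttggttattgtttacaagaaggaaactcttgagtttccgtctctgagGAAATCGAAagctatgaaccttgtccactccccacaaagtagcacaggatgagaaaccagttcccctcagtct
Their positions are chr1:174031756-174031935 for Ifi205, chr1:173741810-173741989 for Ifi207, chr1:173913047-173913226 for Ifi211, chr1:173942493-173942672 for Ifi203, chr1:173880188-173880367 for Mndal, chr1:173673485-173673664 for Ifi208 and chr1:173599273-173599452 for Ifi213. Ifi208 is on the plus strand and the other 6 are on the minus strand.

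Searched on both strands over 300-base windows that run from 250 bases before to 50 bases after the start, GAAANNGAA was present in 8 of the 10 windows of these genes and in 2812 of 32851 mouse promoter windows (8.56%). It was found for 7 of the 8 genes that had a RefSeq window, the exception being Ifi209. Ifi204 had no entry. In the windows printed, the repeat began 35 bases before the start of Ifi203, 36 before Mndal, 37 before Ifi211, 41 before Ifi207, 58 before Ifi208, 73 before Ifi213 and 134 before Ifi205, which has another beginning 24 bases after its start. Ifi203 and Mndal each had another window, without the repeat for Ifi203 and with it 53 bases before the start for Mndal. TTCNNNGAA, the letters of the gamma-activated sequence, was in 0 of the 10 windows and in 8.3% of all windows. The motifs were searched separately, and a match of letters describes the sequence only. Aligned over 300 bases, the Ifi208 and Ifi213 windows were 94% identical, as were the printed windows of Mndal and Ifi203. Other pairs of Mndal and Ifi203 windows shared at most 34.7%. Ifi207 and Ifi211 shared 86.7%, and Ifi205 shared 63% with Ifi211 and 60.3% with Ifi207. These are shares of all 300 bases, so bases left unpaired count as not identical. The Ifi205 start lies farther from its repeat, 134 bases against 37 for Ifi211 and 41 for Ifi207. Its windows therefore pair over a shorter stretch, and its lower shares do not show a more divergent promoter.

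Library totals ran between 23846398 and 32921876 counts, and no replicate pair was as alike as 1 library counted again. Levels are given in CPM, which are reads relative to the library size, here scaled with TMM factors. The first principal component, with 28.9% of the variance, set WT DOX mice 22 and 24 (41.6 and 40.4) apart from WT DOX mouse 21 (6.8), with WT vehicle mouse 2 (-57.4) farthest from them. The second, with 19.8%, set KO DOX mouse 18 (-44.3) and KO vehicle mouse veh_3394 (-39.3) apart from the other hearts. The 6 atrial markers summed to 218 to 1710 CPM in KO DOX hearts (median 262) and 83.5 to 2270 CPM in KO vehicle hearts (median 92.2). In WT hearts they summed to 64.7 to 221 CPM with DOX and 80.4 to 96.3 CPM with vehicle. How far this bears on the p200 levels was not tested. Heart muscle markers summed to between 66600 and 87300 CPM in every library. Pde10a, the targeted gene, went against the genotype labels. It was at 8.27, 8.49 and 9.09 CPM in KO DOX hearts, at 9.31, 11.9 and 9.13 CPM in KO vehicle hearts, at 2.7, 2.08 and 1.79 CPM in WT DOX hearts and at 3.38, 1 and 1.86 CPM in WT vehicle hearts. The log2 difference of KO less WT was 2.30 ± 0.32 under vehicle (SE, edgeR adjusted p = 0.0047) and 1.98 ± 0.31 under DOX (edgeR adjusted p = 0.0243), so KO means the libraries labelled KO throughout. Whether the counted reads fall in the deleted part of Pde10a was not tested.

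Ifi205 and Ifi207 were higher with DOX in WT hearts, whereas Ifi205 was lower with DOX in KO hearts. Ifi205 encodes p205, described in mouse macrophages as a regulator of the inflammasome adaptor gene Asc (Pycard), and Ifi207 encodes a protein reported to enhance STING signalling. Ifi205 was at 13.1, 14.5 and 10.5 CPM in KO DOX hearts, against 25.5, 20.9 and 18.8 CPM in KO vehicle hearts. In WT hearts it was at 19.3, 25.4 and 18.7 CPM with DOX, against 9.66, 8.01 and 12.7 CPM with vehicle. The DOX and vehicle hearts of Ifi205 did not overlap in either genotype, and they were ordered in opposite ways. Its log2 difference of DOX less vehicle was -0.78 ± 0.19 in KO hearts and 1.06 ± 0.19 in WT hearts (SE from the fit over all 12 libraries, n = 3 mice a group). KO vehicle hearts and WT DOX hearts had like levels of Ifi205, with means of 21.7 ± 3.4 and 21.1 ± 3.7 CPM (SD, n = 3 each). KO DOX and WT vehicle hearts were both lower, at 12.7 ± 2.02 and 10.1 ± 2.38 CPM. Between genotypes, the log2 difference of KO less WT for Ifi205 was -0.74 ± 0.19 under DOX and 1.10 ± 0.19 under vehicle. Among all 14757 genes tested, 188 (1.27%) had DOX and vehicle groups that did not overlap in both genotypes and were ordered in opposite ways, and Ifi205 was the member among them.

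Ifi207 followed a similar course with more spread among mice. It was at 17.6, 12.3 and 10.2 CPM in KO DOX hearts, against 22.7, 16.1 and 14.2 CPM in KO vehicle hearts. In WT hearts the DOX values were 20.5, 38.1 and 26.1 CPM, against 10.7, 8.36 and 16.1 CPM with vehicle. The WT groups did not overlap, and the KO groups did. The log2 difference for DOX was -0.40 ± 0.29 in KO hearts and 1.27 ± 0.29 in WT hearts, and the difference of KO less WT was -1.07 ± 0.29 under DOX and 0.60 ± 0.29 under vehicle. WT DOX mouse 22, the highest for Ifi207, was also the highest WT heart for Ifi204, Ifi205, Ifi208, Ifi211 and Ifi213. Without that mouse the DOX difference in WT hearts was 0.99 for Ifi207 and 0.91 for Ifi205.

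Ifi211 and Ifi204 had the same signs as Ifi205 for DOX in both genotypes, with smaller differences in WT hearts. Ifi211 was at 1.93, 1.98 and 1.54 CPM in KO DOX hearts, against 3.92, 3.24 and 2.43 CPM in KO vehicle hearts. In WT hearts it was at 2.7, 3.46 and 1.84 CPM with DOX, against 2.36, 2.21 and 1.71 CPM with vehicle. The KO groups did not overlap, with a log2 difference of -0.82 ± 0.26, and the WT groups did, with a difference of 0.34 ± 0.26. Ifi211 had few reads, 40 to 103 a library, and 63.6% of the 75-base stretches of its transcript occur in another gene's transcripts, and 40.6% of all its stretches occur in Ifi205, so the counts of Ifi211 are uncertain and may not be independent of those of Ifi205. How far reads were shared between them was not tested. For Ifi205 itself 83.4% of such stretches were its own, and for Ifi207 97.2%.

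Ifi204 encodes p204, a DNA sensor of mouse macrophages that signals through STING. It was at 6.11, 4.06 and 3.78 CPM in KO DOX hearts, against 7.49, 8.04 and 5.85 CPM in KO vehicle hearts. The WT hearts had 5.93, 12.6 and 7.72 CPM with DOX, against 3.52, 7.22 and 5.67 CPM with vehicle. Both pairs of groups overlapped. The log2 difference for DOX was -0.62 ± 0.31 in KO hearts and 0.67 ± 0.30 in WT hearts, the WT one falling to 0.32 without WT DOX mouse 22.

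**Figure D1:**
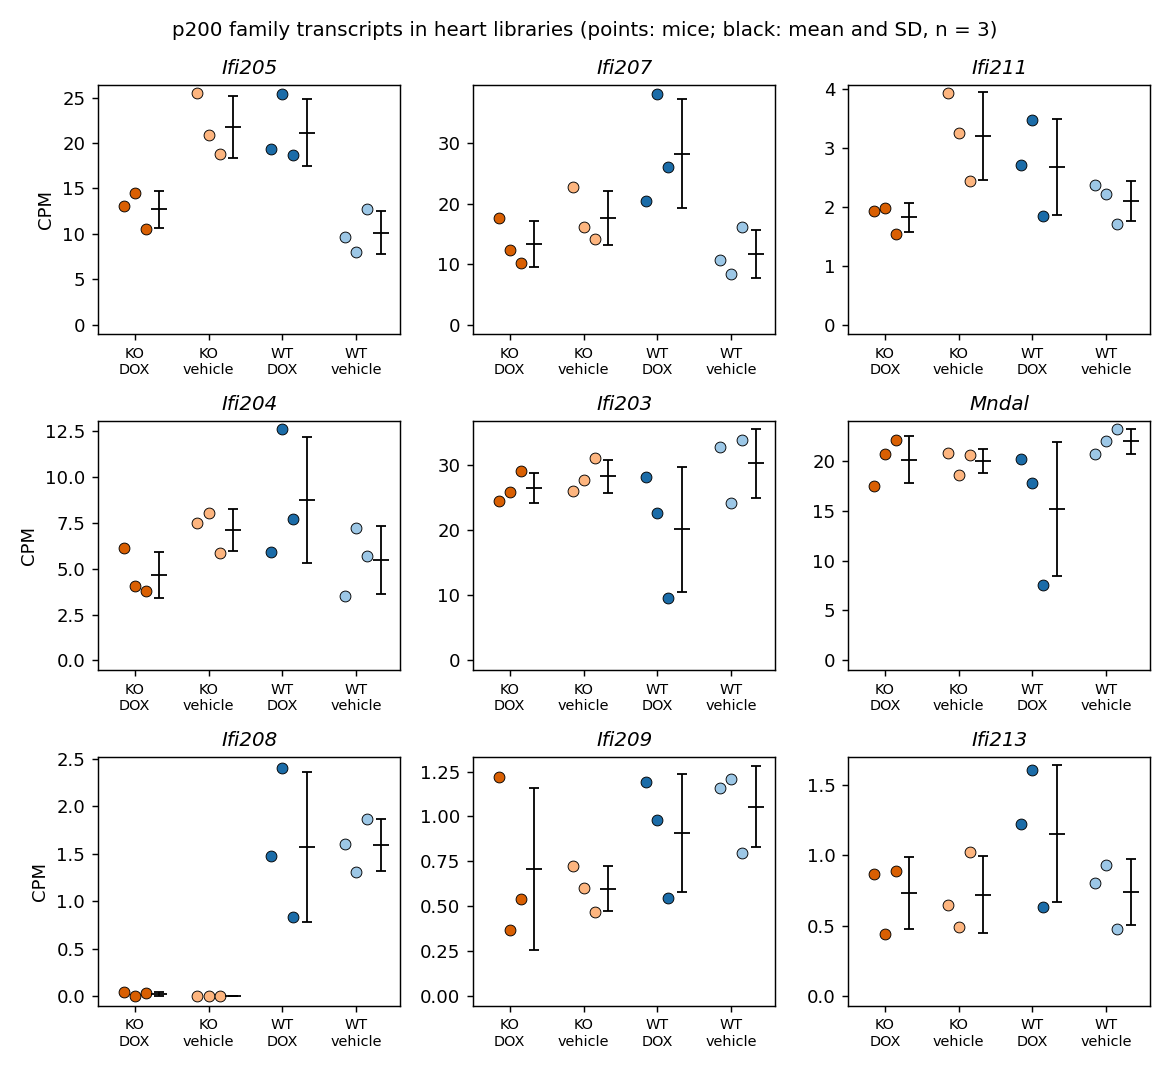
Level of each p200 gene in each heart, in CPM on TMM-scaled library sizes, with 1 point a mouse and a black bar for the mean and SD of the 3 mice of a group; the axes start at 0 and differ in scale between genes. Ifi205 lies at 18.7 CPM or above in the WT DOX and KO vehicle hearts and at 14.5 CPM or below in the KO DOX and WT vehicle hearts, and Ifi208 lies at or near 0 in the KO hearts.

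Ifi203 and Mndal, the members with the highest mean levels per exon base in WT vehicle hearts, did not follow that course. Ifi203 has been described in mouse cells as a sensor of retroviral DNA, and Mndal encodes a nuclear protein reported to slow cell growth. Ifi203 was at 24.5, 25.8 and 29.1 CPM in KO DOX hearts, against 26, 27.7 and 31 CPM in KO vehicle hearts. The WT DOX hearts had 28.2, 22.6 and 9.56 CPM, against 32.7, 24.2 and 33.8 CPM in WT vehicle hearts. One heart, that of WT DOX mouse 24, was far below the rest. Mndal was at 17.5, 20.7 and 22.1 CPM in KO DOX hearts, against 20.8, 18.6 and 20.6 CPM in KO vehicle hearts. In WT hearts Mndal was at 20.2, 17.8 and 7.54 CPM with DOX, against 20.7, 22 and 23.2 CPM with vehicle, and the same mouse was the low one. The DOX log2 difference in WT hearts was -0.59 ± 0.28 for Ifi203 and -0.54 ± 0.26 for Mndal, and -0.25 and -0.21 without mouse 24. In KO hearts it was -0.09 for Ifi203 and 0.01 for Mndal.

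The levels of Ifi203 and Mndal went together across the 12 hearts, with a Pearson correlation of log2 CPM of 0.95 and a Spearman correlation of 0.60. Leaving out WT DOX mouse 24 and WT vehicle mouse 3, the hearts farthest from the median of Ifi203, gave a Pearson correlation of 0.44, so the value rests on those hearts. Their transcripts are mostly distinct, with 94.3% of 75-base stretches of Ifi203 and 88.9% of those of Mndal found in no other gene. Ifi205 and Ifi207 had a Pearson correlation of 0.84 and a Spearman correlation of 0.80 over the 12 hearts, and 0.75 without WT vehicle mice 1 and 2. Between Ifi207 and Mndal the Pearson correlation was -0.49. Like promoters did not always come with like levels, since Ifi207 and Ifi211, with windows 86.7% identical, had a Pearson correlation of 0.49. Ifi208 and Ifi213, with near-identical windows, had 0.38. Ifi208 is near 0 in every KO library, so that value mixes in the genotype split. With group means taken off, the correlation was 0.60 for Ifi208 and Ifi213 and 0.32 for Ifi207 and Ifi211. It was then 0.93 for Ifi203 and Mndal, 0.86 for Ifi205 and Ifi207, and -0.05 for Ifi207 and Mndal. All of these are descriptions over the same 12 libraries, which hold the 4 groups.

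**Figure D2:**
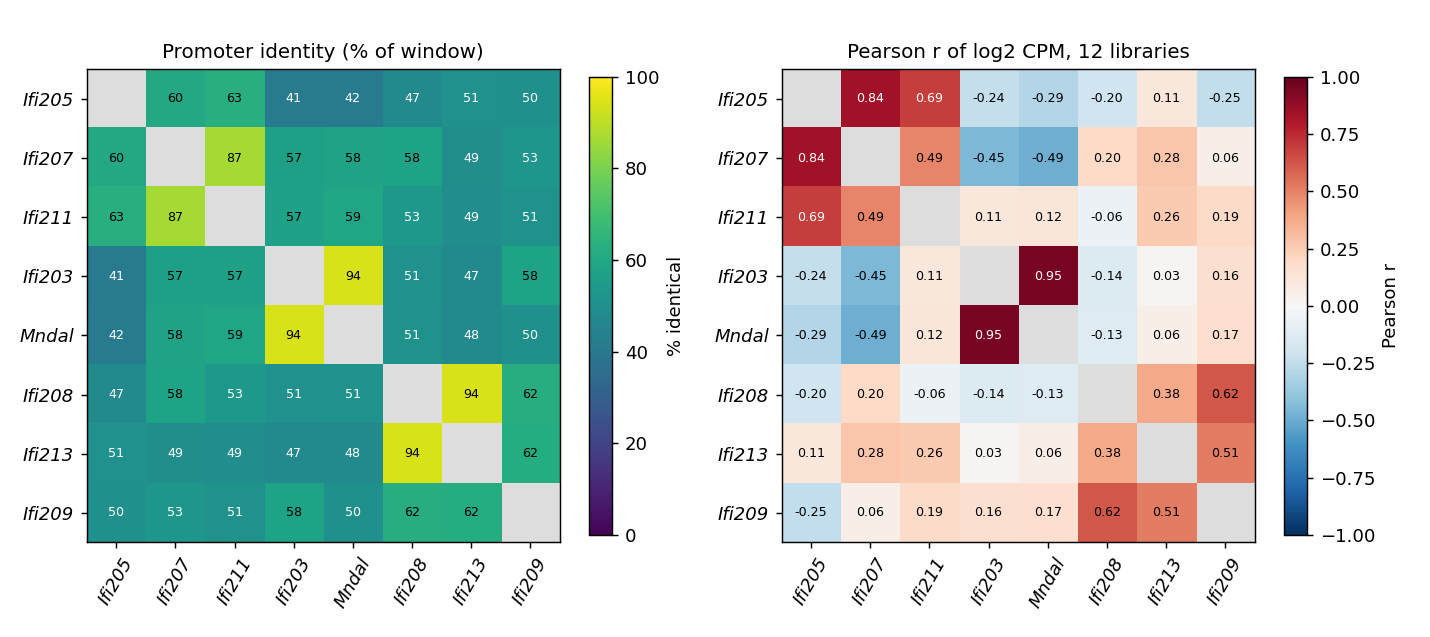
Left, share of identical bases between aligned 300-base promoter windows of 8 p200 genes, in percent; right, Pearson correlation of log2 CPM between the same genes over 12 libraries. Ifi203 and Mndal are at 94% and 0.95, Ifi208 and Ifi213 at 94% and 0.38, Ifi207 and Ifi211 at 86.7% and 0.49, and Ifi205 and Ifi207 at 60.3% and 0.84. Where a gene has more than 1 window, the highest share is shown. Ifi208 is near 0 in every KO library, so its correlations mix in the genotype split. The repeat lies 134 bases before the Ifi205 start and 41 before that of Ifi207. Their windows are thus offset, which lowers the share of that pair.

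Ifi208 was all but missing from the hearts labelled KO. Its reads numbered 1, 0 and 1 in KO DOX hearts and 0 in each of the KO vehicle hearts, against 41, 66 and 29 in WT DOX hearts and 36, 38 and 47 in WT vehicle hearts. Over the 6 libraries of each label there were 2 reads in KO and 257 in WT. Under vehicle, Ifi208 was at least 13.5-fold lower in KO than in WT hearts, taking 3 counts per library as the level that a count of 0 allows. Under DOX, the KO level was 1.68% of the WT level (95% exact interval 0.202% to 6.2%), an interval that covers counting error only. Within WT hearts the DOX and vehicle values overlapped, with a log2 difference of -0.03 ± 0.39. Ifi208 passed the low-count filter through the WT libraries, so its place among the genes tested depended on the group where it was high. Among the 55453 symbols, Ifi208 was the 1 gene with at most 2 counts in every KO library and at least 20 in every WT library. The reverse held for 2 symbols, Tmem181c-ps and Gm36684. These counts on and off were looked up after the Ifi208 values had been seen.

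Ifi213, whose promoter is the near copy of that of Ifi208, was counted in both genotypes. It was at 0.867, 0.439 and 0.886 CPM in KO DOX hearts, at 0.646, 0.491 and 1.02 CPM in KO vehicle hearts, at 1.22, 1.6 and 0.634 CPM in WT DOX hearts and at 0.801, 0.933 and 0.476 CPM in WT vehicle hearts. All 4 groups overlapped. For Ifi208, 9.04% of 75-base stretches were shared with Ifi213 and 88.2% were in no other gene. Ifi209, on the same strand as Ifi208 and next to it, was at 1.22, 0.366 and 0.539 CPM in KO DOX hearts, at 0.722, 0.604 and 0.469 CPM in KO vehicle hearts, at 1.19, 0.983 and 0.547 CPM in WT DOX hearts and at 1.16, 1.21 and 0.794 CPM in WT vehicle hearts. The vehicle groups of Ifi209 did not overlap, with a log2 difference of KO less WT of -0.81 ± 0.44. With 10 to 35 reads a library for Ifi209 and 12 to 44 for Ifi213, counting error limits both.

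Divided by the exon bases of each gene (GENCODE M21), the means of the members were ordered differently in the 4 groups. Spread here means that the ranges of mean ± SD overlap. In KO DOX hearts Mndal had the highest mean, 5.54 ± 0.65 CPM per kb, beyond the spread of Ifi203 at 3.95 ± 0.354 and Ifi205 at 3.04 ± 0.486, but not of Ifi207 at 3.91 ± 1.11. In KO vehicle hearts Mndal at 5.51 ± 0.335, Ifi205 at 5.2 ± 0.82 and Ifi207 at 5.16 ± 1.3 CPM per kb lay within each other's spread, and Ifi203 at 4.21 ± 0.379 was below Mndal beyond their spread but not below Ifi205 and Ifi207. In WT DOX hearts Ifi207 had the highest mean, 8.25 ± 2.63 CPM per kb, within the spread of Ifi205 at 5.06 ± 0.888 and Mndal at 4.18 ± 1.85 and above that of Ifi203 at 3 ± 1.43. In WT vehicle hearts Mndal was highest beyond its spread, at 6.05 ± 0.345 CPM per kb, then came Ifi203 at 4.51 ± 0.783, Ifi207 at 3.42 ± 1.16 and Ifi205 at 2.42 ± 0.57, each within the spread of the next (SD, n = 3 in each). Ifi204 and Ifi211 stayed between 1.02 and 2.46 CPM per kb, and Ifi208, Ifi209 and Ifi213 were at or under 0.302 CPM per kb in every group.

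Summed over the 9 genes, the family was at 80.5 ± 2.13 CPM in KO DOX hearts, 99.3 ± 7.35 CPM in KO vehicle hearts, 99.7 ± 25.8 CPM in WT DOX hearts and 85 ± 10.6 CPM in WT vehicle hearts (SD, n = 3). Ifi205 and Ifi207 made up 32.3 ± 5.48% of the sum in KO DOX hearts and 39.5 ± 4.91% in KO vehicle hearts, and 50.4 ± 10.8% in WT DOX hearts and 25.4 ± 4.17% in WT vehicle hearts. Ifi203 and Mndal made up 57.9 ± 7.21% and 48.8 ± 5.64% in KO DOX and KO vehicle hearts, and 34.6 ± 12.6% and 61.5 ± 2.53% in WT DOX and WT vehicle hearts. In these bulk samples, fewer cells of a type and less RNA per cell cannot be told apart.

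**Figure D3:**
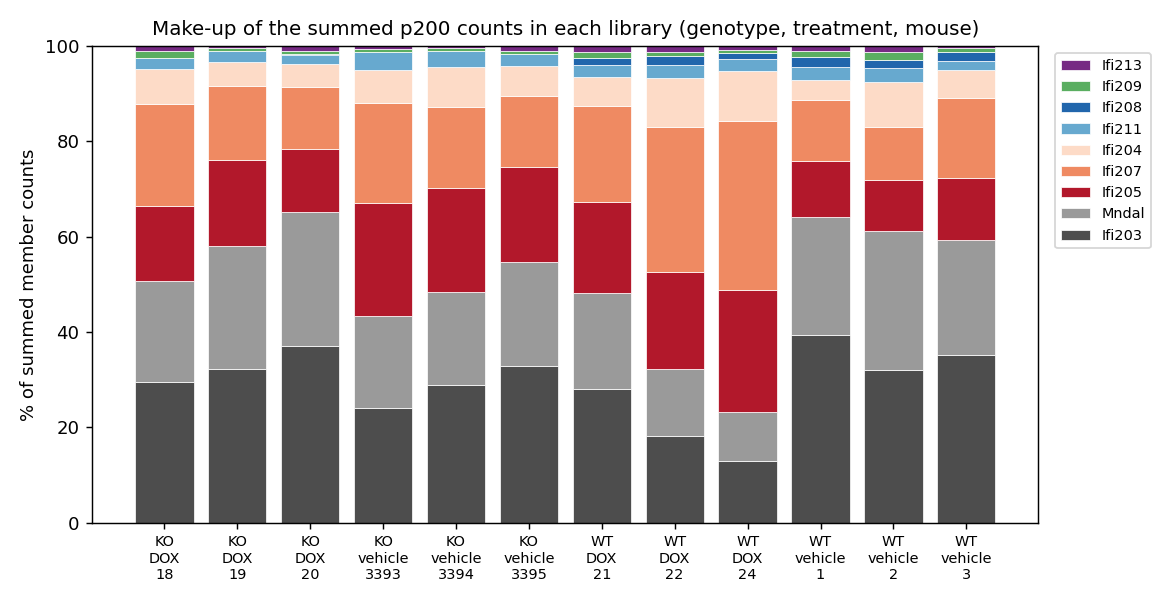
Share of each p200 gene in the summed reads of the 9 genes, in percent, with 1 stacked bar per heart. Ifi203 and Mndal fill 61.5% of the sum on average in WT vehicle hearts and 34.6% in WT DOX hearts, where Ifi205 and Ifi207 fill 50.4%.

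Across the comparisons, the counts of members are given beside those of all 14757 genes, and nothing is read from them because the members were chosen on these groups. A gene was called at an edgeR adjusted p below 0.05. With DOX in KO hearts, 0 of 9 were called, 2 had an unadjusted p under 0.05, and DESeq2 and limma-voom each called 1, against 0.0136% of all genes called by edgeR, 0.447% by DESeq2 and 0.596% by limma-voom. An unadjusted p under 0.05 was found for 789 of the 14757 genes. The groups did not overlap for 2 members, Ifi205 and Ifi211, both lower with DOX, against 16.3% of all genes in either direction and 8.05% lower. With DOX in WT hearts, 2 of 9 members were called, Ifi205 and Ifi207, both higher, against 18.6% of all genes in either direction and 9.39% higher. For that comparison edgeR fitted to the WT groups alone called 0 members, edgeR with no filter 5, DESeq2 2 and limma-voom 6, against 0.141%, 11.8%, 23.3% and 37.8% of all genes. The groups did not overlap for Ifi205 and Ifi207, both higher with DOX, and for Mndal, lower with DOX, against 32.6% of all genes, with 16.8% higher and 15.8% lower. Leaving out WT DOX mouse 22 left 0 members called with DOX in WT hearts, leaving out WT DOX mouse 24 or WT vehicle mouse 2 left 1, and leaving out WT DOX mouse 21 gave 4.

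Between genotypes under DOX, 1 member was called, Ifi208, lower in KO hearts, against 0.42% of all genes in either direction and 0.23% lower. Fitted to the DOX groups alone, edgeR called 0 members, while edgeR with no filter called 4, DESeq2 3 and limma-voom 4, against 0.0351%, 3.9%, 3.21% and 6.71% of all genes. Leaving out KO DOX mouse 20 left 0 and leaving out WT DOX mouse 21 gave 2, Ifi207 and Ifi208. The groups did not overlap for Ifi205, Ifi207 and Ifi208, all lower in KO hearts, against 19.6% of all genes in either direction and 9.75% lower. Under vehicle, 2 members were called, Ifi205, higher in KO hearts, and Ifi208, lower, against 2.88% of all genes, with 1.79% higher and 1.09% lower. Leaving out WT vehicle mouse 2 or KO vehicle mouse veh_3393 or veh_3394 left Ifi208 alone. The groups did not overlap for 4 members, with Ifi205 and Ifi211 higher and Ifi208 and Ifi209 lower in KO hearts, against 31.3% of all genes, with 16.5% higher and 14.8% lower.

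For the interaction, which is the DOX difference in KO hearts less that in WT hearts, the log2 value was -1.84 ± 0.27 for Ifi205, -1.67 ± 0.41 for Ifi207, -1.29 ± 0.43 for Ifi204 and -1.16 ± 0.37 for Ifi211. It was 0.50 for Ifi203 and 0.54 for Mndal, and 0.15 and 0.21 without WT DOX mouse 24. Of the 9 members 1 was called, Ifi205, below 0, against 0.21% of all genes in either direction and 0.102% below 0. DESeq2 called 2 members, edgeR with no filter 3 and limma-voom 4, against 2.48%, 3.7% and 13.9% of all genes. Ifi205 was no longer called without WT DOX mouse 22 or 24, WT vehicle mouse 2 or 3, KO DOX mouse 20 or any of the KO vehicle mice, while its size stayed between -2.04 and -1.69. Without Ifi208, whose fitted KO values have no measured size, the median log2 difference over the other 8 members was -0.25 for DOX in KO hearts, 0.49 for DOX in WT hearts, -0.60 for KO less WT under DOX, 0.16 under vehicle and -0.88 for the interaction. Over the 9 members these medians were -0.09, 0.34, -0.65, -0.05 and -0.60, and over all genes they lay between 0 and 0.02.

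**Figure D4:**
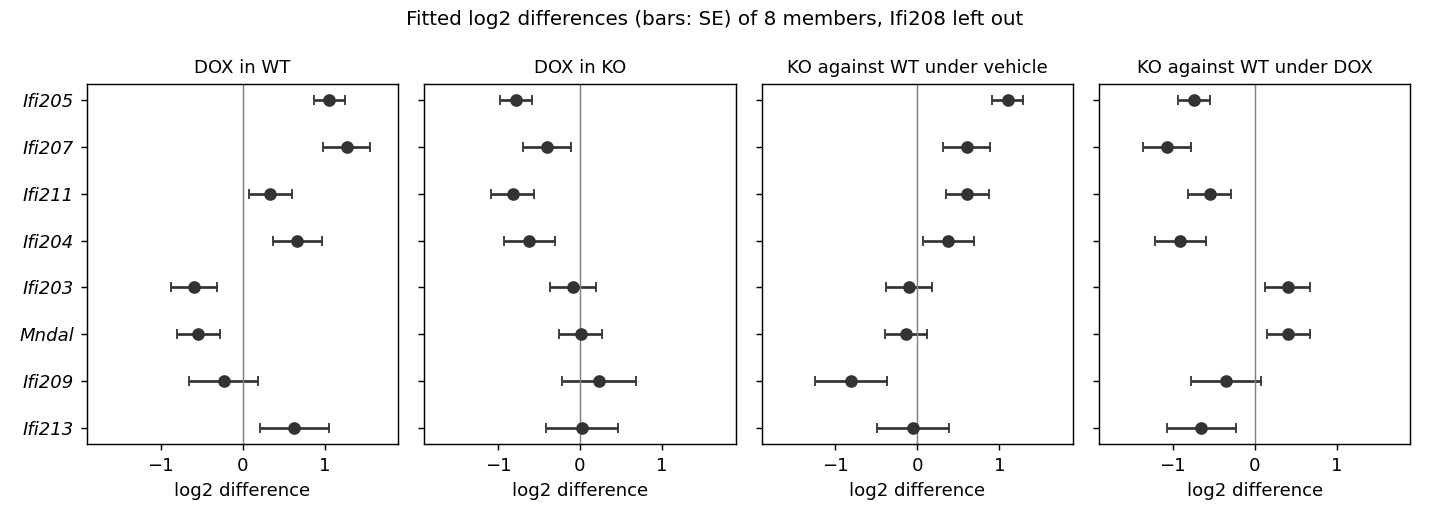
Log2 difference of the 8 p200 genes other than Ifi208, with bars of 1 SE, for DOX less vehicle within each genotype and for KO less WT within each treatment, from the edgeR fit over 12 libraries. Ifi205 lies at -0.78 for DOX in KO hearts and at 1.06 for DOX in WT hearts, while Ifi203 and Mndal lie below 0 for DOX in WT hearts.

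Other p200 genes were low or did not pass the test. Aim2, the DNA sensor of the inflammasome, averaged 1.34 ± 0.159 CPM in KO DOX hearts, 1.34 ± 0.151 CPM in KO vehicle hearts, 1.4 ± 0.14 CPM in WT DOX hearts and 1.53 ± 0.403 CPM in WT vehicle hearts (SD, n = 3), and its edgeR adjusted p was 0.668 or above in every comparison. The pseudogene Ifi203-ps averaged 8.72 ± 1.75, 7.12 ± 0.926, 4.56 ± 2.29 and 8.01 ± 3.44 CPM in KO DOX, KO vehicle, WT DOX and WT vehicle hearts. Its DOX log2 difference in WT hearts was -0.81 ± 0.36 (edgeR adjusted p = 0.129), and its lowest heart was again WT DOX mouse 24, at 2.48 CPM. Ifi206 had 1 to 12 reads a library, Ifi214 had 0 or 1, and Ifi202b was listed at 0 in every library.

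The wider interferon response was followed through 59 other interferon-stimulated genes. With DOX in WT hearts edgeR called 3 of them higher and 0 lower, against 9.39% of all genes higher and 9.2% lower, namely Gbp6 and Ifit2, which encode a guanylate-binding protein and a translation inhibitor, and Eif2ak2, the kinase PKR. Gbp6 was at 8.72 ± 1.61 CPM with DOX and 3.91 ± 1 CPM with vehicle in WT hearts (log2 difference 1.16, edgeR adjusted p = 0.0155). Ifit2 was at 17.3 ± 7.98 and 9.53 ± 1.25 CPM (log2 difference 0.86, edgeR adjusted p = 0.0356) in WT DOX and WT vehicle hearts, and Eif2ak2 at 10.1 ± 2.17 and 6.44 ± 1.44 CPM (log2 difference 0.65, edgeR adjusted p = 0.0361). For that comparison DESeq2 called 5 of the 59 and limma-voom 14, against 23.3% and 37.8% of all genes. With no filter edgeR called 13, against 11.8%, and on the WT groups alone 0, against 0.141%. In KO hearts given DOX, edgeR called 0 of the 59, with 4 at an unadjusted p under 0.05 and 0 called by DESeq2 or limma-voom. Few genes of any kind were called there, 0.0136% by edgeR, 0.447% by DESeq2 and 0.596% by limma-voom. Of all 14757 genes, 789 had an unadjusted p under 0.05, so these counts do not set the list apart. The list's median log2 difference was -0.16 for DOX in KO hearts and 0.05 for DOX in WT hearts, and the median over all genes was 0.01 and 0.

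Each of these calls depended on single libraries. Gbp6 missed the threshold when WT DOX mouse 22, WT DOX mouse 24 or WT vehicle mouse 2 was left out, at adjusted p between 0.05 and 0.0636. Ifit2 was lost in 7 of 12 such fits (WT DOX mice 22 and 24, WT vehicle mice 2 and 3, KO DOX mouse 20 and KO vehicle mice veh_3393 and veh_3395), at adjusted p between 0.0505 and 0.126. Without WT DOX mouse 22 its log2 difference was 0.42. Eif2ak2 was lost in 6 of 12 (WT DOX mice 22 and 24, WT vehicle mice 2 and 3, KO DOX mouse 20 and KO vehicle mouse veh_3395), at adjusted p between 0.0519 and 0.143.

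Between genotypes under vehicle, edgeR called 1 gene of the same list, DESeq2 3 and limma-voom 10, against 2.88%, 11.1% and 35.1% of all genes. With no filter edgeR called 9, against 7.06%. Gbp5, another guanylate-binding protein gene, was at 13.6 ± 1.54 CPM in KO vehicle hearts and 7.2 ± 0.287 CPM in WT vehicle hearts (log2 difference 0.91, edgeR adjusted p = 0.0302). It was lost without WT vehicle mouse 2 or 3, KO DOX mouse 20 or any of the KO vehicle mice, at adjusted p between 0.0517 and 0.118. Under DOX edgeR called 0 of 59 between genotypes, with 6 at an unadjusted p under 0.05, 0 called by DESeq2 and 2 by limma-voom. Of all 14757 genes, edgeR called 0.42%, DESeq2 3.21% and limma-voom 6.71%, and 2285 had an unadjusted p under 0.05. For the interaction edgeR called 0, with 6 at an unadjusted p under 0.05, 1 called by DESeq2 and 7 by limma-voom, and the list's median was -0.25. In that comparison edgeR called 0.21% of all genes, DESeq2 2.48% and limma-voom 13.9%, and 2365 genes had an unadjusted p under 0.05.

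Among 17 tested genes of interferon signalling, edgeR called 2 with DOX in WT hearts, 1 higher and 1 lower. Of all genes it called 18.6%, with 9.39% higher and 9.2% lower. Irf7, the factor that amplifies type I interferon, was at 15.1 ± 4.95 CPM with DOX and 8.08 ± 1.5 CPM with vehicle in WT hearts (log2 difference 0.90, edgeR adjusted p = 0.0362). Ifngr2, a chain of the interferon-gamma receptor, was at 84.1 ± 25 and 123 ± 8.23 CPM in WT DOX and WT vehicle hearts (log2 difference -0.55, edgeR adjusted p = 0.043). Irf7 was lost without WT DOX mouse 22 or 24, any of the WT vehicle mice, or KO vehicle mouse veh_3393 or veh_3395, at adjusted p between 0.0509 and 0.147, and Ifngr2 without any 1 library other than WT DOX mouse 21, at adjusted p between 0.0509 and 0.157. Stat2 and Irf9 were not called in any comparison. Stat2 had log2 differences for DOX of -0.32 in KO hearts (edgeR adjusted p = 0.807) and 0.28 in WT hearts (edgeR adjusted p = 0.124), and Irf9 of -0.43 (edgeR adjusted p = 0.804) and -0.01 (edgeR adjusted p = 0.974). Ifnb1, the gene of interferon beta, was listed at 0 in every library.

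Among 16 tested genes of DNA sensing, 1 was called lower with DOX in WT hearts and under vehicle in KO hearts. Of all genes, 9.2% and 1.09% were called lower in these comparisons. Irf3, the factor downstream of STING, was at 28.2 ± 2.77 CPM in WT DOX hearts and 38.1 ± 4.47 CPM in WT vehicle hearts (log2 difference -0.44, edgeR adjusted p = 0.0216). Under vehicle it was at 27.3 ± 1.37 CPM in KO hearts and 38.1 ± 4.47 CPM in WT hearts (log2 difference -0.48, edgeR adjusted p = 0.0379), a comparison that shares the WT vehicle hearts. The first call did not hold when WT DOX mouse 22 or 24 was left out, nor without WT vehicle mouse 2 or 3, at adjusted p between 0.0686 and 0.0899, and the second without WT vehicle mouse 2 or 3 or any 1 KO library, at adjusted p between 0.0511 and 0.152. The STING gene Tmem173 had log2 differences for DOX of -0.58 in KO hearts (edgeR adjusted p = 0.725) and -0.42 in WT hearts (edgeR adjusted p = 0.156). Pycard, the adaptor gene ASC, had -0.38 (edgeR adjusted p = 0.997) and -0.08 (edgeR adjusted p = 0.865).

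Among markers of blood cells, those of neutrophils were called in every comparison but DOX in KO hearts. The 9 neutrophil markers summed to 5.49 to 6.32 CPM in KO DOX hearts, 7.77 to 11.9 CPM in KO vehicle hearts, 9.99 to 41 CPM in WT DOX hearts and 3.29 to 4.4 CPM in WT vehicle hearts, and none of them was at 0 in every library. Of 7 tested, 6 were called higher with DOX in WT hearts (Cxcr2, S100a8, S100a9, Csf3r, Mmp8 and Retnlg), against 9.39% of all genes. Under vehicle 1 was called higher in KO than in WT hearts (Cxcr2), against 1.79%. Under DOX 2 were called lower in KO hearts (S100a8 and S100a9), against 0.23%. For the interaction 3 were called lower, against 0.102%. With DOX in KO hearts 0 were called, against 0.0136% of all genes, and 0 had an unadjusted p under 0.05. Cxcr2, S100a8 and S100a9 were each lower there with groups that did not overlap, while the Mmp8 groups overlapped. Ifi205 was also lower without overlap and not called (edgeR adjusted p = 0.364). Of all genes, 8.05% were lower without overlap. The 18 macrophage and monocyte markers summed to 238 to 454 CPM in KO DOX hearts, 362 to 450 CPM in KO vehicle hearts, 364 to 436 CPM in WT DOX hearts and 298 to 628 CPM in WT vehicle hearts. With DOX in WT hearts 1 of 17 tested was called higher and 2 lower, against 9.39% and 9.2% of all genes. The 14 lymphocyte markers summed to at most 3.52 CPM in every heart. The 12 endothelial markers summed to 979 to 1100 CPM in KO DOX hearts, 863 to 973 CPM in KO vehicle hearts, 874 to 1040 CPM in WT DOX hearts and 1270 to 1380 CPM in WT vehicle hearts. Of these 12, 6 were called lower with DOX in WT hearts and 4 lower in KO under vehicle, against 9.2% and 1.09% of all genes. The part of any of these cells in the p200 differences was not tested.

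Genes outside the family were ranked by their Pearson correlation with the log2 summed p200 level over the 12 hearts, leaving out genes whose log2 CPM averaged under 1. The 8 nearest were Ddit4 and B3gnt3 (0.87), Ip6k2 (0.86), Rasgef1b, Oas2 and Apobec3 (0.84), and Stat2 and Parp14 (0.83). Oas2, Stat2, Parp14 and Apobec3 are known interferon-responsive genes. Without WT DOX mouse 22 and KO vehicle mouse veh_3393 these correlations were between 0.62 and 0.83. For Ifi205 alone, a ranking added after its values had been seen, the nearest were Map3k6 (0.96), Hif3a and Rhobtb1 (0.95), Fam107a (0.93), Fkbp5 and Rnf144b (0.92), Apobec3 (0.91) and Aff1 (0.90). None of them is on the interferon lists used here, although Apobec3 is interferon-responsive, as said above. These are the highest of many correlations over libraries that share the 4 groups, and they describe likeness only.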

How the data were processed

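RNA from 12 mouse hearts was sequenced as stranded mRNA libraries, per the labels' protocols. The files deposited by the authors hold whole-number read counts by gene symbol. The submitters' processing notes name Subread 1.6.4, featureCounts, STAR 2.7.0f and fastp 0.20.0. Their genome build, annotation and strand setting, and how reads matching several genes were treated, were not given in the sources used here, so counts of close p200 copies are uncertain.

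In R 4.3.3, the filterByExpr function of edgeR kept 14757 of 55453 symbols, whose counts were scaled with TMM, and fitted with 1 mean per group over all 12 libraries. Comparisons used the quasi-likelihood F test of edgeR 4.0.16 and called genes at a Benjamini-Hochberg adjusted p (over the 14757 genes) below 0.05. The SE of a log2 difference is its size divided by the square root of F. It rests on a spread estimated over all 12 libraries and moderated across genes, not on the compared mice alone. All 9 members passed the filter. On counts simulated for these libraries with 200 changed genes the procedure was checked. Correlations used log2 CPM with a prior count of 2. Alternatives used DESeq2 1.42.0 and limma 3.58.1 with voom, other scalings and filters, a title suffix as covariate, the compared groups alone, and each library left out. Library totals of at least 23846398 counts leave low genes limited by counting error.

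The members and gene lists were chosen with earlier results of these data known. The genes named are the members, the other p200 genes, Pde10a, a fixed set of interferon and DNA sensing genes, up to 4 called genes per list and comparison, markers called, and the 8 genes most like the summed members. The genes nearest to Ifi205 and Ifi208, and those on in one genotype and off in the other, were added after values were seen. Libraries of a group carry separate mouse numbers, so p-values measure the spread between mice. Transcript stretches and promoters were matched to GENCODE M21 and RefSeq by symbol with Biopython 1.88, and 98.3% of symbols were found in GENCODE M21.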

Additional observations from a re-analysis of the deposited data

Results flagged for a closer look

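The response of Ifi205 to DOX differed between genotypes. The DOX difference in KO hearts less that in WT hearts was -1.84 on the log2 scale. It drew attention because every KO DOX heart was below every KO vehicle heart while every WT DOX heart was above every WT vehicle heart, and because the interaction passed the threshold over all genes. Ifi205 was among the genes this description was built on, so the value is not independent evidence.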

How the results depend on the processing

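No paired analysis was possible because the groups share no replicate numbers. For the 8 members other than Ifi208, 787 recomputed log2 differences under the alternatives held 783 within the spread between mice, 4 beyond it and 0 called values reversed, and 767 kept their sign. Scaling moved the median of all genes by at most 0.05. Counts of calls moved more, in the order DOX in WT, DOX in KO, KO against WT under vehicle, KO against WT under DOX, and interaction. Leaving out 1 library gave 0 to 4, 0, 1 to 2, 0 to 2 and 0 to 2 members called, and 0 to 9, 0, 0 to 5, 0 to 1 and 0 to 1 interferon-stimulated genes. The medians over 9 members then ran from 0.12 to 0.56, -0.41 to -0.02, -0.16 to 0.17, -0.82 to -0.34 and -0.91 to -0.27. The share of all genes called with 1 library left out is not given here, so nothing is read from those counts. With no filter, members called were 5 for DOX in WT, 1 for DOX in KO, 4 for KO against WT under DOX and 3 for the interaction, and interferon-stimulated genes 13, 1, 9, 4 and 8 in the full order, against 11.8%, 1.04%, 7.06%, 3.9% and 3.7% of all genes. With at least 1 CPM in 3 libraries, 5 interferon-stimulated genes were called for DOX in WT, against 21.5% of all genes. DESeq2 called 1 member for DOX in KO, 3 for KO against WT under DOX and 2 for the interaction, and 5, 3 and 1 interferon-stimulated genes for DOX in WT, KO against WT under vehicle and the interaction, against 23.3%, 0.447%, 11.1%, 3.21% and 2.48% of all genes in the full order. Limma-voom called 6 members for DOX in WT, 1 for DOX in KO, 4 for KO against WT under DOX and 4 for the interaction, with a median of -1.02 for the interaction, and 14, 10, 2 and 7 interferon-stimulated genes for DOX in WT, KO against WT under vehicle, KO against WT under DOX and the interaction, against 37.8%, 0.596%, 35.1%, 6.71% and 13.9% of all genes in the full order. The title suffix as a covariate left 1 interferon-stimulated gene for DOX in WT, against 10.8% of all genes. The meaning of this suffix is not given. It was on all KO DOX libraries, WT DOX mice 22 and 24, KO vehicle mice veh_3394 and veh_3395 and WT vehicle mouse 1. It is therefore partly confounded with the groups. Fitting the compared groups alone left 0 members for DOX in WT, 0 for KO against WT under DOX and 0 interferon-stimulated genes for DOX in WT, with fewer samples to estimate the spread. Of all genes, those fits called 0.141% for DOX in WT and 0.0351% for KO against WT under DOX. The cause of the other shifts was not tested.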

Other observations

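Ifi208 levels across the 12 hearts were closest to those of Tmem181a, with a Pearson correlation of log2 CPM of 0.98, and then Safb2 (0.96) and Srsf6 (0.95), a ranking added after the Ifi208 values had been seen. Since Ifi208 separates the 6 KO from the 6 WT libraries, such correlations describe genes that also differ by genotype label. The 10 cardiomyocyte markers summed to 76800 to 83800 CPM in KO DOX hearts, 77600 to 87300 CPM in KO vehicle hearts, 66600 to 77500 CPM in WT DOX hearts and 78200 to 86100 CPM in WT vehicle hearts. The 8 dendritic cell markers summed to 22.4 to 24.7 CPM in KO DOX hearts, 30.6 to 32.9 CPM in KO vehicle hearts, 13.4 to 28.6 CPM in WT DOX hearts and 55.1 to 88.8 CPM in WT vehicle hearts. Of 4 tested, 3 were called lower with DOX in WT hearts (Zbtb46, Cd209a and H2-Ab1), against 9.2% of all genes. In the other comparisons 0 were called. Cd209a had at most 17 reads a library.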
